A study of Mus musculus with 8 samples.

Results

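The 10 genes described here make lipoate, attach it to proteins, or encode dehydrogenase subunits that work with it. They were chosen by symbol (Fdx1, Lias, Lipt1, Lipt2, Dld, Dlat, Pdha1, Pdhb, Dlst and Gcsh) and are 10 of the 57180 genes in the deposited count table. Each symbol matched 1 row. The study sequenced RNA of mouse regulatory T (Treg) cells, a suppressive class of CD4 T cells, that had been isolated on a cell sorter. The labels give 8 libraries in 2 groups, 3 chimera KO and 5 chimera WT (called KO and WT below). They do not name the deleted gene, the strain, the age, the tissue or how the chimeras were made, and they do not tie each library to 1 mouse. The p-values therefore reflect variation between libraries, part of which may be technical. The input was 10 ng of total RNA, prepared with SMART-Seq v4, a full-length kit for small samples that does not mark strand. The series title concerns copper and Treg cell suppression.

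Lipoate is a sulfur-containing cofactor that is bound to a lysine of a few mitochondrial proteins and carries reaction intermediates between the active sites of their complexes. It is built on the octanoyl chain that mitochondrial fatty acid synthesis supplies: Lipt2 transfers the chain to the H protein of glycine cleavage, Gcsh, and the iron-sulfur enzyme Lias inserts the sulfur atoms. Lipt1 then passes lipoate on to the E2 subunits of the 2-oxoacid dehydrogenases. In human cells the ferredoxin Fdx1 is needed for protein lipoylation, and copper that binds lipoylated proteins can be toxic, which is the link between this pathway and copper. In T cells the dehydrogenases feed pyruvate and 2-oxoglutarate carbon into the citric acid cycle.

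The proteins of 3 members carry the cofactor themselves. The coding sequence around the lysine codon that takes up lipoate is shown for them, because that codon is what makes them targets of Lias and the transferases. Sequences are from GENCODE M21 transcripts on the GRCm38 (mm10) build, 21 bases on each side of the codon, 5′ to 3′ on the coding strand, with the lysine codon in capitals.
Dlat, lipoyl site 1: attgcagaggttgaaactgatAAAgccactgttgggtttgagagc
Dlat, lipoyl site 2: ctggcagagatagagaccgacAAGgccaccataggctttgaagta
Dlst, lipoyl site: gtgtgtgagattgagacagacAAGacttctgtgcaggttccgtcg
Gcsh, lipoyl site: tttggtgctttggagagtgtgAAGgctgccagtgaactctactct

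The first Dlat site, codon 131 of 642, spans chr9:50658254-50658696 on the minus strand, across the junction of exons 2 and 3. The second, codon 258, spans chr9:50650928-50653655 and crosses the junction of exons 5 and 6. The Dlst site, codon 111 of 454, spans chr12:85118814-85119253 on the plus strand, across exons 6 and 7. The Gcsh site, codon 104 of 170, lies within exon 4 at chr8:116983890-116983934 on the minus strand. The 45-base windows of the Dlat sites had 64.4% of bases in common, and each shared 51.1% with Dlst, whereas Gcsh shared 42.2% to 44.4% with the other windows. The deposited values are counts per gene, so they do not show reads over these codons.

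Total counts were 8477688, 4567177 and 4314262 in KO replicates 1 to 3 and 10544594 to 17976947 in the WT libraries. All 7 T cell markers, among them Cd3e and Cd4, were detected in each library with at least 10 counts. Their summed level was 1246 to 2353 normalised CPM in KO libraries and 2720 to 18262 in WT libraries. With this scaling (TMM, below) every KO sum lay below every WT sum. With library size alone the sums overlapped, KO replicate 1 lying above WT replicate 3. Each of the 7 T cell markers had a negative log2 change, KO minus WT, with a median of −1.88. The sum of 7 Treg markers was 669 to 2869 in KO libraries and 2874 to 6373 in WT libraries, and all 7 changes were negative, with a median of −1.34. With library size alone the Treg marker sums overlapped as well, KO replicate 1 lying above WT replicates 4 and 5. Among the Treg markers Foxp3 stood between 2.69 and 26.6 in KO libraries and between 1.26 and 41.9 in WT libraries (log2 change −0.09). Ctla4 and Nrp1 did not overlap between the groups in normalised CPM (−1.84 and −1.25), with KO lower in both. No overlap was seen for 17.7% of all genes tested in either direction and for 4.49% with KO lower. With library size alone Ctla4 and Nrp1 overlapped. Ctla4 then had 479 CPM in KO replicate 1 and 286 in WT replicate 5, and Nrp1 had 65.2 in KO replicate 2 and 51.7 in WT replicate 5. Of the 7 T cell markers 1, Cd3d, did not overlap in normalised CPM (−1.88). With library size alone Cd3d stayed apart, at 561 to 669 CPM in KO and 686 to 1811 in WT libraries. By edgeR 0 of the 14 T and Treg cell markers passed an adjusted p of 0.05. At an unadjusted p under 0.05 there were 6, all lower in KO, against 6.43% of all genes tested that were lower. DESeq2 called 5, all lower in KO, against 5.66% of the genes to which it gave an adjusted p. The part of these differences in the members' values was not tested. Markers of other cells were highest in WT replicates 4 and 5. The summed level of 7 NK and CD8 T cell markers was 4.34 to 62.8 normalised CPM in KO libraries, 4276 in WT replicate 4 and 48.4 to 143 in the other WT libraries. The sum of 7 B cell markers was 82.2 to 194 in KO libraries, 3108 in WT replicate 4 and 201 to 555 in the other WT libraries. The sum of 7 erythroid markers was 0.45 to 7.34 in KO libraries, 9102 in WT replicate 5, 0 in WT replicate 4 and 0.58 to 22.2 in the other 3. In WT replicate 4, 3 of the 7 NK and CD8 T cell markers, Cd8a among them, and 1 of the 7 B cell markers were at 0. The sum of 8 myeloid markers was 5.25 to 58.2 in KO libraries and 3.65 to 777 in WT libraries, highest in WT replicate 4. The change of each tested member is therefore also given without WT replicates 4 and 5. Normalised CPM are counts scaled to a common library size with TMM factors, whose values were 1.32 to 1.49 in KO libraries, 0.4 and 0.689 in WT replicates 4 and 5, and 1.08 to 1.15 in the other WT libraries; a factor under 1 raises a value.

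No lipoylation gene differed between KO and WT libraries past the threshold, and the groups overlapped for each of the 8 that could be tested, whereas 17.7% of all genes tested had no overlap. Of the 10 members, 8 passed the filter on low counts and 2, Lipt1 and Lipt2, did not. By edgeR's quasi-likelihood test 0 of the 8 had a Benjamini-Hochberg adjusted p under 0.05 over all genes, against 0% of the 14755 genes tested. At an unadjusted p under 0.05 there were 0 members, against 14.4% of all genes tested. DESeq2 called 0 members and 9.83% of the genes to which it gave an adjusted p. In 7 of the 8 the log2 change, KO minus WT, was below 0, as for 56.8% of all genes tested and 66.5% of the protein-coding ones. The median over the 8 was −0.82, beside −0.42 over all genes tested and −0.87 over protein-coding genes, so the members' median lay close to that of coding genes in general. Without WT replicates 4 and 5 the members' median was −0.59, and 0 members passed.

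**Figure D1:**
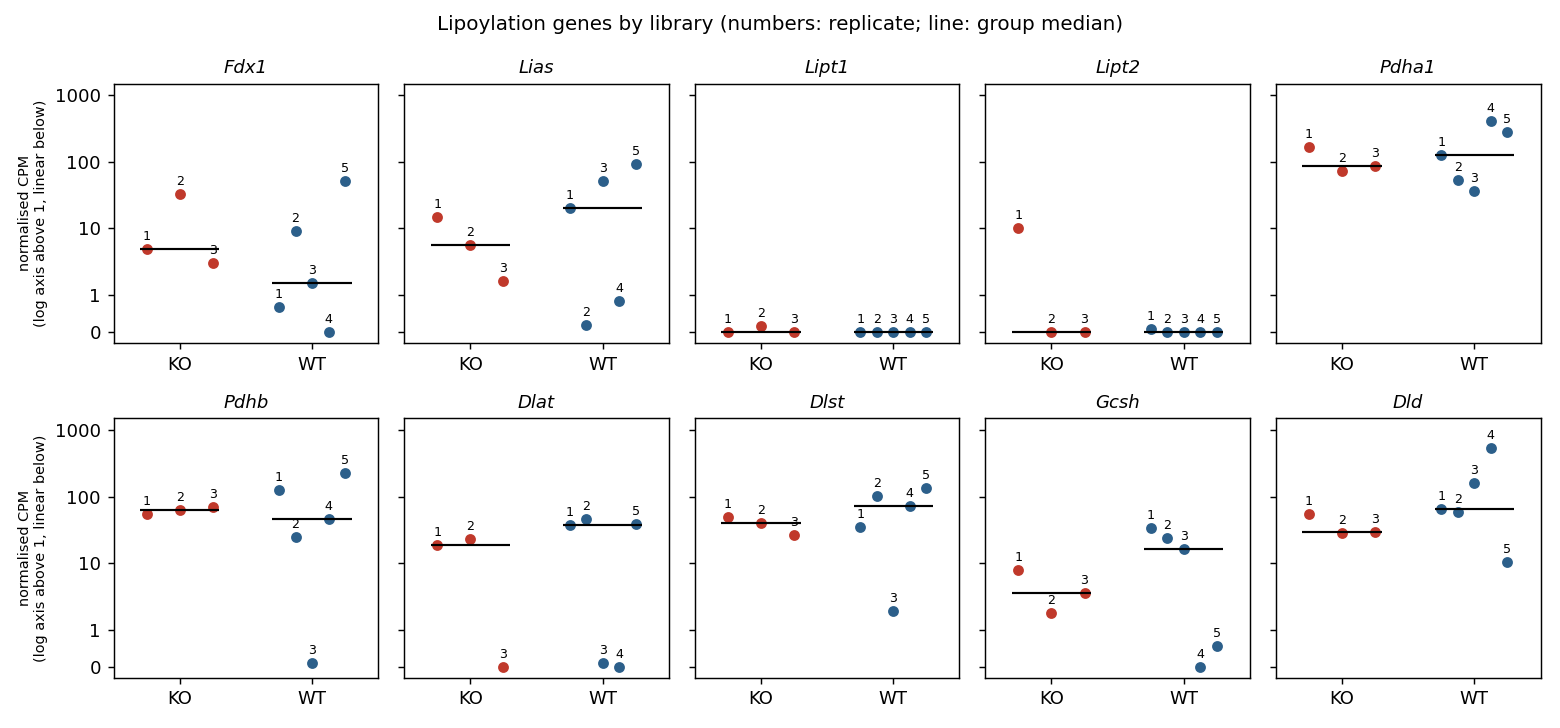
Normalised CPM of the 10 lipoylation genes in each library, KO left and WT right in each panel, on an axis that is logarithmic above 1 and linear below. Points are libraries with their replicate number and lines are group medians. No member separates the groups, and in Pdhb, Dlat and Gcsh single WT libraries lie at or near 0 while others exceed 30.

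The synthesis genes were detected unevenly between libraries. Fdx1 (ENSMUSG00000032051, chromosome 9, 51943306 to 51963556, minus strand), the ferredoxin that passes electrons to mitochondrial enzymes, had 4.90, 32.3 and 3.04 normalised CPM in KO replicates 1 to 3, against 0.66, 9.02, 1.51, 0 and 51.8 in WT replicates 1 to 5. With this scaling the highest and the lowest library were both WT, and all 3 KO values lay inside the WT range. With library size alone KO replicate 2 was the highest, at 47.3 CPM, above WT replicate 5, at 35.2. The means were 13.4 ± 16.4 in KO (SD, n = 3) and 12.6 ± 22.2 in WT (n = 5), and the log2 change was 0.09 (SE 1.85, 95% interval −4.05 to 4.23, adjusted p = 0.98 in edgeR). Leaving out KO replicate 2, the only KO library above 5, gave −1.68, and leaving out WT replicate 5 gave 2.29. The sign was also negative without WT replicate 1, 3 or 4. Without WT replicates 4 and 5 together the change was 1.91.

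Lias (ENSMUSG00000029199, chromosome 5, 65391497 to 65410693, plus strand), lipoic acid synthetase, had 14.7, 5.68 and 1.61 normalised CPM in KO replicates 1 to 3, against 20.3, 0.17, 50.7, 0.84 and 91.5 in WT replicates 1 to 5. WT replicates 1, 3 and 5 lay above every KO library and WT replicates 2 and 4, with 2 and 6 counts, below every one. The log2 change was −2.15 (SE 1.81, 95% interval −6.19 to 1.89, adjusted p = 0.531 in edgeR), and −1.71 without WT replicates 4 and 5. Its values did not follow those of Fdx1, the other synthesis gene that was tested: WT replicate 3 had 603 counts of Lias and 18 of Fdx1, and WT replicate 2 had 2 of Lias and 104 of Fdx1.

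The transferase genes were at the limit of detection. Lipt1 (ENSMUSG00000037216, chromosome 1, 37871738 to 37876228, plus strand), which moves lipoate to the E2 subunits, had 1 count in KO replicate 2 and 0 in the other 7 libraries. A count of 0 allows up to 3 counts, equal to 0.249 to 0.537 normalised CPM across those libraries, and this limit covers counting error only. Of its exon bases 262 overlap Mitd1 on the other strand, which had 4 to 825 counts in KO libraries and 207 to 2039 in WT libraries, so reads from the overlap cannot be assigned to 1 gene without strand. Lipt2 (ENSMUSG00000030725, chromosome 7, 100159277 to 100161365, plus strand), the octanoyl transferase, had 117 counts in KO replicate 1, 1 in WT replicate 1 and 0 in the other 6. Its 117 counts equal 10.2 normalised CPM in that library, so it was seen in 1 of 3 KO libraries and reached 10 counts in 0 of 5 WT libraries. Both were left out of the main test by the count filter, and no fold change is given for them because too few libraries held counts. At this depth absence cannot be told from a level under the limit.

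The E1 subunits of pyruvate dehydrogenase, which decarboxylate pyruvate, had the highest medians per length over the 8 libraries (in TPM, below), and neither differed between the groups past the threshold. Pdha1 (ENSMUSG00000031299, chromosome X, 160122209 to 160138413, minus strand), the catalytic alpha subunit, had 165, 74.0 and 86.3 normalised CPM in KO replicates 1 to 3, against 125, 53.4, 36.0, 405 and 281 in WT replicates 1 to 5. With TMM scaling WT replicates 4 and 5 lay above every KO library and WT replicates 2 and 3 below every one. With library size alone KO replicate 1 was the highest library, at 223 CPM, against 160 and 191 in WT replicates 4 and 5. The log2 change was −0.73 (SE 0.89, 95% interval −2.73 to 1.26, adjusted p = 0.661 in edgeR). Without WT replicates 4 and 5 it was 0.62, the opposite sign. Pdha2, the testis copy of the gene, had 0 counts in all libraries, and 603 exon bases of Pdha1 overlap Map3k15, which had 143 counts in WT replicate 1 and at most 2 elsewhere.

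Pdhb (ENSMUSG00000021748, chromosome 14, 8165996 to 8173025, minus strand), the beta subunit that pairs with Pdha1, had 55.5, 61.9 and 69.8 normalised CPM in KO replicates 1 to 3, against 126, 24.5, 0.08, 46.4 and 227 in WT replicates 1 to 5. The KO libraries lay close together and the WT libraries on either side of them, with 1 count in WT replicate 3 and 1629 in WT replicate 5. The means were 62.4 ± 7.14 in KO (SD, n = 3) and 84.9 ± 92.6 in WT (n = 5), and the log2 change was −0.44 (SE 1.44, adjusted p = 0.878 in edgeR). It was 0.54 without WT replicate 5 and 0.37 without WT replicates 4 and 5. The partner subunits thus differed within a library: in TPM, counts per base of gene length scaled to the same total in each library, the ratio of Pdha1 to Pdhb was 1.58, 0.635 and 0.657 in KO replicates 1 to 3 and 0.527, 1.16, 227, 4.64 and 0.657 in WT replicates 1 to 5. The ratio does not depend on the scaling of libraries. It lay within the KO range in 2 of 5 WT libraries.

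The lipoylated E2 subunits and the H protein, whose lipoyl sites are printed above, likewise overlapped between the groups. Dlst (ENSMUSG00000004789, chromosome 12, 85110833 to 85134845, plus strand), the E2 of 2-oxoglutarate dehydrogenase, had 50.0, 40.2 and 26.7 normalised CPM in KO replicates 1 to 3, against 35.1, 103, 1.93, 72.5 and 136 in WT replicates 1 to 5. All 3 KO values lay inside the WT range (log2 change −0.84, SE 1.14, adjusted p = 0.694 in edgeR). Without WT replicates 4 and 5 the change was −0.24. WT replicate 5, in which erythroid markers were highest, held the highest normalised CPM of Dlst, Fdx1, Lias and Pdhb. With library size alone it held the highest value of Lias and Pdhb only. Dlst was then highest in WT replicate 2 (111 CPM, against 92.5 in WT replicate 5). Fdx1 was highest in KO replicate 2 (47.3 CPM, against 35.2 in WT replicate 5). The part of other cells in the values of WT replicate 5 was not tested.

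Dlat (ENSMUSG00000000168, chromosome 9, 50634633 to 50659780, minus strand), the E2 of pyruvate dehydrogenase with 2 lipoyl sites, had 19.0, 23.3 and 0 normalised CPM in KO replicates 1 to 3, against 37.7, 46.0, 0.08, 0 and 39.2 in WT replicates 1 to 5. It was at 0 or 1 count in 3 of 8 libraries, 1 KO and 2 WT, and at 156 to 531 counts in the other 5. Among libraries with more than 1 count, the 3 WT values lay above the 2 KO values, a split made after seeing the values and not tested. With library size alone this order did not hold: WT replicate 5, at 26.6 CPM, lay below KO replicate 2, at 34.2. The log2 change was −0.80 (SE 2.16, 95% interval −5.63 to 4.03, adjusted p = 0.851 in edgeR), and −0.94 without WT replicates 4 and 5.

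Gcsh (ENSMUSG00000034424, chromosome 8, 116981810 to 116993537, minus strand), the H protein of the glycine cleavage system, had 7.96, 1.79 and 3.58 normalised CPM in KO replicates 1 to 3, against 33.8, 24.1, 16.1, 0 and 0.56 in WT replicates 1 to 5. WT replicates 1 to 3 lay above every KO library and WT replicates 4 and 5 below every one. The log2 change was −1.74 (SE 1.79, 95% interval −5.75 to 2.26, adjusted p = 0.604 in edgeR). Without WT replicates 4 and 5 it was −2.47, with an adjusted p of 0.306 in edgeR.

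Dld (ENSMUSG00000020664, chromosome 12, 31331277 to 31351453, minus strand), the E3 flavoenzyme that reoxidises lipoate in all of these complexes, had 55.2, 28.7 and 29.2 normalised CPM in KO replicates 1 to 3, against 65.0, 58.4, 162, 535 and 10.3 in WT replicates 1 to 5. With this scaling WT replicates 1 to 4 lay above every KO library and WT replicate 5 below every one. With library size alone KO replicate 1, at 74.4 CPM, lay above WT replicates 1 and 2, at 73.9 and 63.2. Dld had the smallest unadjusted p of the members, 0.101, with a log2 change of −2.14 (SE 1.18, 95% interval −4.79 to 0.50, adjusted p = 0.389 in edgeR and 0.113 in DESeq2). Leaving out WT replicate 4, where NK and B cell markers were highest, gave −0.97, and leaving out WT replicates 4 and 5 together gave −1.34. With any other single library left out the change was −2.59 to −1.99. The part of those cells in the Dld value was not tested; in bulk libraries fewer cells of a type and less RNA per cell cannot be told apart.

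**Figure D2:**
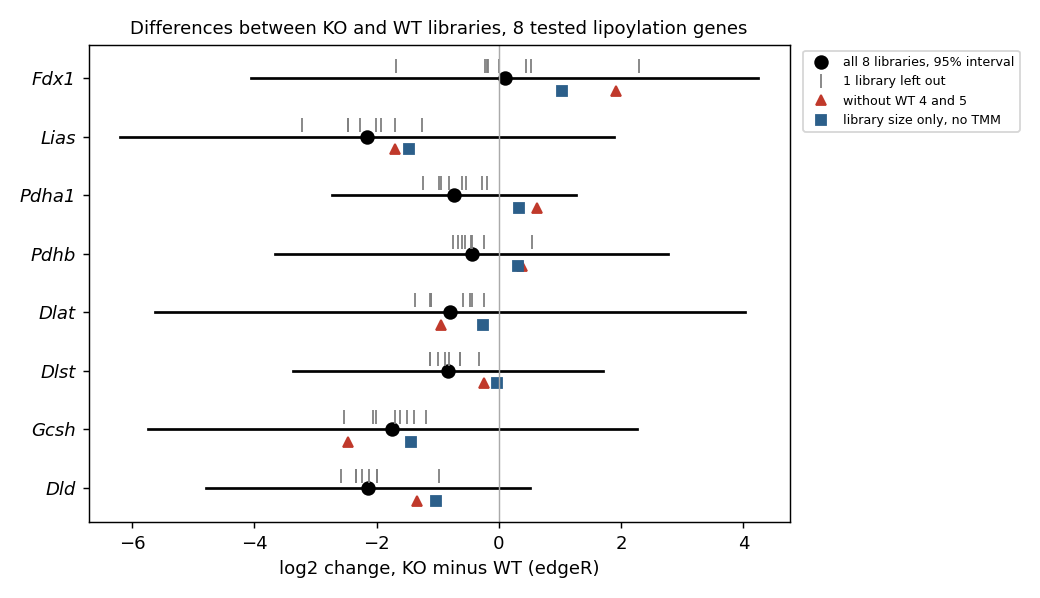
Log2 change of KO minus WT libraries for the 8 lipoylation genes that passed the count filter, by edgeR. Black points and lines are the estimate with its 95% interval from all 8 libraries, grey ticks leave out 1 library each, red triangles leave out WT replicates 4 and 5, and blue squares use library size alone. Each interval spans 0, and Pdha1 and Pdhb lie on the other side of 0 in the triangles and squares.

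The direction of several members rested on how the libraries were scaled. With library size alone the median change of all genes tested moved to 0.21 from −0.42, and that of the 8 members to −0.14. Set against the median of all genes in the same fit, the members' median was lower with TMM factors and with library size alone, close to it among protein-coding genes alone (−0.41 beside −0.42) and higher with the replicate block (0.15 beside 0.077). With library size alone Pdha1 and Pdhb had changes of 0.33 and 0.32, the opposite sign, while Lias, Gcsh and Dld kept negative values of −1.47, −1.44 and −1.04. Lias, Dlat, Gcsh and Dld had a negative change in every one of the 20 alternative settings, and Fdx1, Pdha1, Pdhb and Dlst did not keep their sign in all of them. The lowest adjusted p of any member in any setting was 0.113, for Dld in DESeq2.

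Per length, Pdhb, Pdha1, Dld and Dlst had the 4 highest medians in KO and in WT libraries alike. The median TPM over the 8 libraries was 91.7 for Pdhb, 64.1 for Pdha1, 47.8 for Dld and 36.1 for Dlst. It was 14.5 for Lias, 10.3 for Fdx1, 10.3 for Dlat, 9.17 for Gcsh and 0 for both Lipt1 and Lipt2. The ranges over libraries of neighbours in this order overlapped in every case, so the order within these blocks is not firm. Lengths are the deposited ones, each equal to that of 1 annotated transcript, which for Dlst is a nonsense-mediated decay transcript (2259 bases, against 2764 for its coding one). With the longest coding transcript in their place Fdx1 (2759 bases in place of 875) and Lias (2996 in place of 1668) had medians of 3.27 and 8.07 TPM, below Dlat and Gcsh, and the upper 4 stayed in order.

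**Figure D3:**
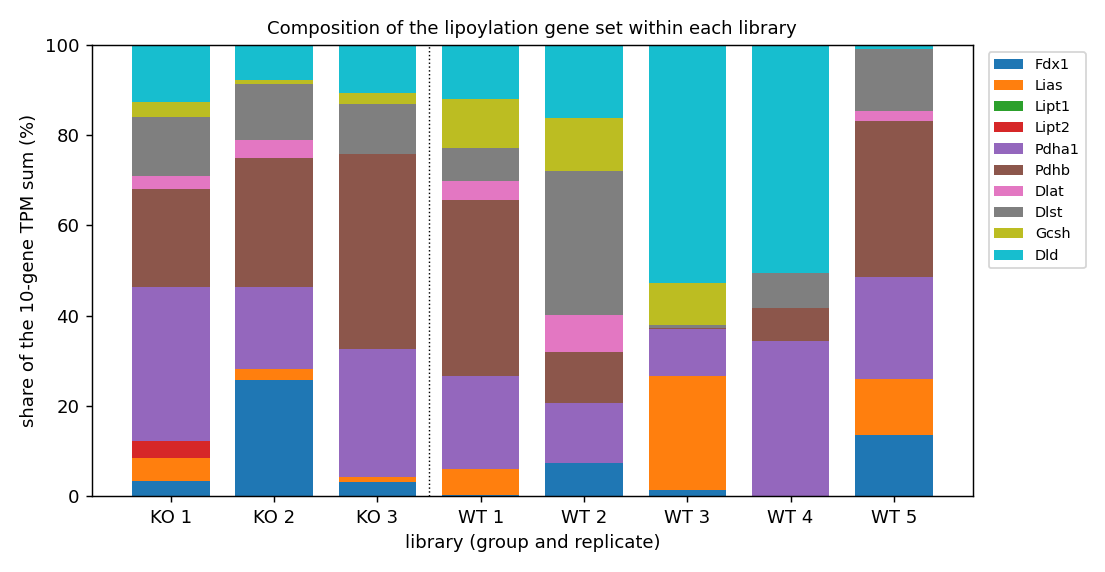
Share of each gene in the TPM sum of the 10 lipoylation genes, as stacked bars for KO replicates 1 to 3 on the left and WT replicates 1 to 5 on the right. Pdha1 and Pdhb together exceed the other genes in KO replicates 1 and 3 and in WT replicates 1 and 5, whereas Dld alone holds 52.8% and 50.6% in WT replicates 3 and 4 and 0.928% in WT replicate 5.

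As shares of the 10-gene TPM sum, which scaling between libraries does not change, Pdha1 varied least among the WT libraries relative to its mean. It held 26.9 ± 8.17% in KO libraries (SD, n = 3) and 20.2 ± 9.29% in WT libraries (n = 5), with 10.5% as its lowest value. Dlst held 11.1% to 13.1% in KO libraries and 0.71% to 32.0% in WT libraries. Dld held 7.87% to 12.8% in KO libraries and 0.928% to 52.8% in WT libraries. Lias held at most 5.20% in KO libraries and up to 25.2% in WT libraries, and Fdx1 up to 25.7% in KO replicate 2 and 13.5% in WT replicate 5. The summed TPM of the 10 genes was 404, 336 and 223 in KO replicates 1 to 3 and 420, 282, 201, 190 and 421 in WT replicates 1 to 5. The sum thus overlapped between the groups.

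The spread among libraries was that of the data as a whole. The coefficient of variation over libraries had a median of 0.585 in KO and 1.04 in WT libraries over the 8 tested members, and of 0.684 in KO and 0.992 in WT libraries over all genes tested. Of the 8 members 3 (Fdx1, Dlat and Gcsh) had a count of 0 in at least 1 library, 37.5%, against 37.1% of all genes tested. Members with at least 10 counts numbered 9, 8 and 6 of 10 in KO replicates 1 to 3 and 7, 7, 6, 4 and 7 in WT replicates 1 to 5. WT replicate 4 had the fewest despite the highest total count, and there 53.0% of the genes tested reached 10 counts, against 76.6% to 88.7% in KO libraries and 61.6% to 87.2% in the other WT libraries.

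Genes around the pathway were set beside the members in lists chosen by role. Of the 70 listed genes 69 were found in the table and 60 were tested. By edgeR 0 had an adjusted p under 0.05. At an unadjusted p under 0.05, 4 of the 60 genes were lower and 2 higher in KO libraries, against 6.43% of all genes tested that were lower and 7.96% that were higher. DESeq2 called 4 lower and 1 higher, against 5.66% and 4.16% of the genes to which it gave an adjusted p. KO and WT libraries were fully apart for 3 of the 60, in 2 of them with KO lower, against 17.7% of all genes tested in either direction and 4.49% with KO lower. Among the 8 members the count was 0.

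Among other subunits of the lipoylated complexes, 8 of 9 were tested, with a median log2 change of −0.35. Ogdh, the E1 of 2-oxoglutarate dehydrogenase, averaged 53.6 ± 42.2 normalised CPM in KO and 132 ± 101 in WT libraries. Bckdhb, of the branched-chain complex, averaged 37.5 ± 23.5 in KO and 22.7 ± 18.2 in WT libraries. Its partner Bckdha had the smallest p of the list, with 0.29 ± 0.38 in KO and 9.96 ± 18.1 in WT libraries, the highest being 42.1 in WT replicate 4 (adjusted p = 0.373 in edgeR). Pdhx, the E3-binding lipoyl protein of pyruvate dehydrogenase, was named after its values were seen: it had 9.62, 8.07 and 2.15 in KO replicates 1 to 3 and 1.58, 0, 24.6, 0 and 39.8 in WT replicates 1 to 5.

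Of the kinases and phosphatases that set the activity of these complexes, 6 of 9 were tested, with a median change of −0.99. Ppm1k, the phosphatase of the branched-chain complex, averaged 39.7 ± 19.5 in KO and 93.6 ± 51.1 normalised CPM in WT libraries. Pdk1, a kinase that inhibits pyruvate dehydrogenase, averaged 50.6 ± 57.5 in KO and 84.4 ± 40.2 in WT libraries. The phosphatase Pdp2 had the smallest p, with 4.64, 3.44 and 86.8 in KO replicates 1 to 3 and 0.70 to 5.21 in WT libraries. Its log2 change of 4.07 (adjusted p = 0.325 in edgeR) came with 1 high library, KO replicate 3, and was not refitted for this gene without it.

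Supply of the octanoyl chain and of iron-sulfur clusters was measured by 2 lists. Of the mitochondrial fatty acid synthesis genes 5 were tested, with a median change of −0.79. The acyl carrier Ndufab1, also a complex I subunit, averaged 91.5 ± 8.44 normalised CPM in KO and 158 ± 80.8 in WT libraries (log2 change −0.79, adjusted p = 0.525 in edgeR). Hsd17b8, which takes part in the reductase step of the same synthesis, averaged 45.5 ± 12.5 in KO and 37.9 ± 33.5 in WT libraries. Of the iron-sulfur genes 15 of 16 were tested, with a median of −0.78.

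Nfu1, which in human cells delivers clusters to lipoic acid synthetase, had 2.62, 38.0 and 4.65 normalised CPM in KO replicates 1 to 3, against 141, 0.35, 149, 641 and 362 in WT replicates 1 to 5. All WT libraries but replicate 2, which was the lowest of all, lay above every KO library. The log2 change was −4.10 (SE 1.80, unadjusted p = 0.0468, adjusted p = 0.342 in edgeR and 0.0436 in DESeq2). Isca2, which takes part in assembling such clusters, averaged 35.4 ± 34.0 in KO and 215 ± 224 in WT libraries. Fdx2, the related ferredoxin of cluster assembly, was named after its values were seen: it had 18.9, 17.5 and 22.6 in KO replicates 1 to 3 and 12.2, 17.9, 35.3, 0 and 5.86 in WT replicates 1 to 5, so its KO values lay closer together than those of Fdx1.

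The citric acid cycle, which the dehydrogenases feed, had the lowest median of the pathway lists, −2.05 over 15 tested genes, 12 of them negative. Its summed level was 305 to 643 normalised CPM in KO libraries, 7480 in WT replicate 4 and 958 to 2198 in the other WT libraries. The list median was not taken without WT replicates 4 and 5 or with library size alone. Mdh2, malate dehydrogenase, had 35.2, 48.9 and 65.1 normalised CPM in KO replicates 1 to 3, against 164, 176, 108, 2100 and 655 in WT replicates 1 to 5. Every KO library lay below every WT library, the largest values being those of WT replicates 4 and 5. The log2 change was −3.69 (SE 1.16, unadjusted p = 0.00991, adjusted p = 0.325 in edgeR and 0.0127 in DESeq2). Sdhb, the iron-sulfur subunit of succinate dehydrogenase, averaged 86.7 ± 70.5 in KO and 419 ± 593 in WT libraries.

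**Figure D4:**
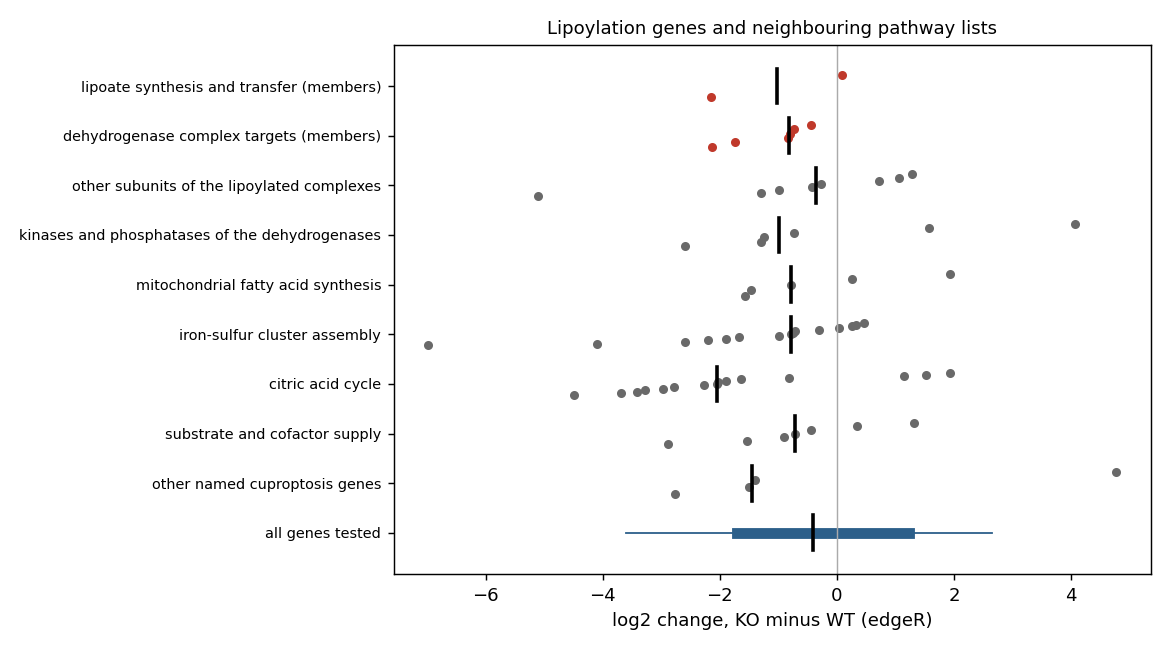
Log2 change of KO minus WT libraries by edgeR for each tested gene, with members in red, the genes of 7 neighbouring lists in grey and list medians as black bars. For all genes tested the thick bar spans the 25th to 75th and the thin bar the 5th to 95th percentile. The members lie between −2.15 and 0.09, inside the thin bar of all genes.

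Among substrate and cofactor carriers all 7 were tested, with a median change of −0.72. Mpc1, a subunit of the mitochondrial pyruvate carrier, averaged 47.8 ± 48.5 normalised CPM in KO and 352 ± 305 in WT libraries (adjusted p = 0.348 in edgeR). Slc25a3, the mitochondrial phosphate and copper carrier, averaged 204 ± 114 in KO and 337 ± 157 in WT libraries. Of the other genes named in copper-induced cell death 4 of 6 were tested. Mtf1, the metal-responsive transcription factor, averaged 7.34 ± 1.40 in KO and 19.4 ± 29.0 in WT libraries. The copper importer Slc31a1 had 16.6 to 45.9 in KO and 0 to 3.91 in WT libraries (adjusted p = 0.325 in edgeR and 0.0307 in DESeq2); no lipoylation gene had such a gap between the groups.

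By likeness of log2 normalised CPM over the 8 libraries, the genes nearest to Fdx1 were Tmem41b, Mau2 and Rab29, with Pearson r of 0.941, 0.94 and 0.936. Those nearest to Dlat were Lyset, Prkx and Vps26b, with 0.984, 0.966 and 0.952. The rank (Spearman) correlations were 0.976, 0.905 and 0.905 for Fdx1, and lower for Dlat, at 0.635, 0.886 and 0.778. Dlat had 0 counts in KO replicate 3, 1 in WT replicate 3 and 0 in WT replicate 4. The correlations are descriptions over 8 libraries that share depth and detection limits. None of the 6 was another lipoylation gene.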

How the data were processed

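Values in the deposited table are expected counts per gene, which the authors estimated and which need not be whole; rounding to integers came first. Per the submitters' processing notes the tools were fastp, HISAT2, StringTie, RSEM and DESeq2, on mm10; versions, roles and annotation are not given there. Gene lengths in bases are the deposited ones. The authors' group means were not used, and 0 columns belonged to other samples. Values were not whole in all 8 libraries for Pdhb and Dld, in 4 for Pdha1, 2 for Gcsh and 1 for Lias.

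The main analysis used edgeR 4.0.16 (R 4.3.3): filterByExpr at a minimum count of 10, TMM factors, and a two-sided quasi-likelihood test over all genes in all 8 libraries, with no covariates. A call means a Benjamini-Hochberg adjusted p under 0.05. Standard errors are |log2 change| divided by √F, and intervals are 95%. Alternatives were other scalings and filters, DESeq2 1.42.0, limma-voom (limma 3.58.1) with quality weights, thinning, protein-coding genes only, a replicate block and libraries left out. Steps were tested on simulated data. Loci came from GENCODE M21 and figures from matplotlib 3.10.9. Totals of 4314262 to 17976947 counts limit low genes. Libraries within a group differed beyond sampling noise (chi-square per degree of freedom, lowest pair 66.8).

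All members were named. Each neighbouring list gave its 2 tested genes of highest mean and the 1 of smallest p. The likeness rule took the 3 genes of highest r for Fdx1 and Dlat, at a mean log2 CPM (prior count 2) of 3 or more. The result of 1 gene that this rule named is not reported here. Pdhx and Fdx2 were added after their values were seen. The members, lists and alternatives were chosen with earlier results of these data known.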

Additional observations from a re-analysis of the deposited data

Results flagged for a closer look

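In the group of 5 WT libraries, 3 values stood far from their group by Dixon's test at the 95% level. Chance passes this level in about 1 in 20 groups of normally distributed values. The rate for normalised CPM, used here without a log, was not measured. Fdx1 had 51.8 normalised CPM in WT replicate 5, where the next WT library had 9.02. Dld had 535 in WT replicate 4, where the next, WT replicate 3, had 162. With library size alone Dld had 212 CPM in WT replicate 4 and 173 in WT replicate 3. The test was not run on those values. Lipt2 had 0.083 in WT replicate 1, which is 1 count beside 0 in the other 4, a pattern that passes this test at any count. In WT replicate 5 the erythroid markers and in WT replicate 4 the NK and B cell markers were also highest; their part in these values was not tested. The 3 KO libraries are too few for this test, so the 117 counts of Lipt2 in KO replicate 1 were not examined by it.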

How the results depend on the processing

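In 20 alternative settings 0 members passed the threshold in each, and the median change of the 8 tested members stayed within the spread between libraries (1 SD, 1.33) of −0.82. It was below 0 in all but the fit with the replicate block, where it was 0.15, and was −1.38 to −0.40 with single libraries left out. Of 160 changes of single members 137 kept their sign and 23 reversed. Fdx1 turned to −0.27 with DESeq2 size factors, −0.18 with no filter, −0.30 in DESeq2 and −0.37 without WT replicates 2 and 3, whose library names begin with other letters (FY) than those of the other 6; the labels do not say what the letters stand for. Pdha1 turned to 0.33 with library size only, 0.23 with upper quartile factors, 0.17 in limma-voom, 0.62 without WT replicates 4 and 5 and 0.71 with the replicate block. Pdhb turned to 0.32, 0.49, 2.01, 0.37 and 1.89 in the same 5 settings and to 0.078 among protein-coding genes. Dlst turned to 0.034 with upper quartile factors, 0.54 in limma-voom and 0.85 with the replicate block. With single libraries left out Fdx1 ranged from −1.68 to 2.29 and Pdhb from −0.75 to 0.54. The causes were not tested. Over all genes edgeR called 0, and 1 with library size only, upper quartile factors, no filter, thinning or a minimum mean of 5 CPM; limma-voom called 22 and DESeq2 1443; with single libraries left out edgeR called 0 each time. The labels do not say whether the replicate numbers pair the libraries. Same-numbered KO and WT libraries had deviations correlated at 0.017, 0.02 and 0.047, and differently numbered ones at −0.065 to 0.021. Every library but KO replicate 2 correlated best with its own number. Correlations this small cannot decide whether the libraries are paired. With the block edgeR called 0 genes. Counts near 0 in WT replicate 4 and the smaller KO totals limit what can be seen of Fdx1, Lias, Dlat, Gcsh, Lipt1 and Lipt2.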
